A study of Mus musculus with 2 samples.

Results

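The cells described are fibroblasts of the mouse nose that held transcripts of most of 6 inflammatory genes at once, called chemokine-high fibroblasts here. A barcode was taken as a cell with at least 1000 UMIs (unique molecular identifiers, each counting 1 captured transcript), at least 300 genes and at most 15% mitochondrial UMIs. A cell was taken as a fibroblast with at least 3 of Col1a1, Col1a2, Dcn, Pdgfra and Lum detected and 0 UMIs of the cartilage genes Acan and Cnmd. It was counted as chemokine-high with at least 4 of Cxcl1, Ccl2, Ccl7, Ptx3, Tnfaip6 and Il6 detected. By this rule 2069 of 23816 cells were chemokine-high fibroblasts, 1311 of 14136 cells in mouse 1 and 758 of 9680 cells in mouse 2. They are set against the 4481 chemokine-low fibroblasts, 2206 in mouse 1 and 2275 in mouse 2, in which at most 1 of the 6 genes was detected.

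The 2 animals were male C57BL/6J mice of the wildtype, with no treatment, altered allele or age named, and the dissected tissue carries the label olfactory epithelium. Each gave 1 library of single cells, which were freed by enzyme digestion, sieved, rid of red blood cells and captured in droplets. Every group of fibroblasts therefore comes from the same 2 animals and went through the same digestion. The p-values rest on the spread within these 2 mice over all fibroblast groups fitted below, partly shared across genes. They do not reach other animals. The cells held 75242309 and 68027119 UMIs, with medians of 3908.5 and 5199 UMIs per cell. Other cell types were classed by 3 or more of 5 markers, under 3 of the 5 fibroblast genes and no other class with as many markers. In both libraries, 0 cells were classed as olfactory neurons (Rtp1, Umodl1, Stoml3, Carns1 and Omp), a count that allows up to 3 such cells in each. By keratin and adhesion markers, 5 and 4 cells were classed as epithelial. Cells classed as the labelled epithelium were thus all but absent, while 4949 and 4107 cells met the fibroblast rule and 1004 and 377 cells were classed as cartilage. Cells with cartilage markers and 3 or more fibroblast genes are not in that count. The cells without a class, 12601 and 8841, include the fibroblasts. The libraries shared 483 cell barcodes, among them 25 and 27 of the chemokine-high cells.

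Fibroblasts make the collagen frame of connective tissue, and they are also among the first cells to answer injury or microbial products. Toll-like receptors, interleukin-1 receptors and tumour necrosis factor receptors on their surface free the transcription factor NF-κB from its inhibitors, and NF-κB, AP-1 and C/EBP proteins then switch on chemokine and cytokine genes. Chemokines draw leukocytes from the blood: those with a CXC motif such as Cxcl1 mainly neutrophils, and CC chemokines such as Ccl2 and Ccl7 mainly monocytes. Many of these genes are also known to respond to the handling and digestion of tissue.

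In mouse 1, 26.5% of the fibroblasts were chemokine-high, and in mouse 2 it was 18.5%, with exact 95% Clopper-Pearson bounds of 25.3% and 27.7% in mouse 1 and of 17.3% and 19.7% in mouse 2. This gave a mean of 22.5% ± 5.68 (SD, n = 2 mice). The bounds cover counting error only. The groups had like depths, with medians of 2644 and 3500 UMIs, against 2633 and 3592 UMIs in chemokine-low cells. Median mitochondrial shares were 4.36% and 5.06% in chemokine-high cells, against 5.02% and 5.86% in chemokine-low cells. Cells with the highest doublet scores, kept here, were 5.95% and 4.49% of chemokine-high cells, against 5.17% and 3.91% of chemokine-low cells. When every cell was thinned to 2000 UMIs and shallower cells were left out, 23.0% and 14.1% of the fibroblasts met the rule. Both ways the share was higher in mouse 1, a difference between 2 libraries that has no replicate.

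The 6 genes chose the cells, so their levels are a description with no test. Levels are in CPM, a gene's UMIs summed over all cells of a group in a mouse and scaled to the same total of UMIs for every group. Cxcl1, which attracts neutrophils through the receptor Cxcr2, was at 4990.1 and 3018 CPM in chemokine-high cells of mice 1 and 2, against 61.3 and 40.1 CPM in chemokine-low cells. Ccl2, the main attractant of monocytes, was at 1751 and 1313 CPM in chemokine-high cells of mice 1 and 2, against 39.8 and 9.70 CPM in chemokine-low cells. Ccl7, a second ligand of the monocyte receptor Ccr2, was at 3461 and 2382 CPM in chemokine-high cells of mice 1 and 2, against 28.6 and 14.98 CPM in chemokine-low cells. These 3 chemokines separated the groups in both mice with no overlap, as the rule requires.

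Il6, the cytokine that signals through Il6st and Stat3, was at 986 and 589.6 CPM in chemokine-high cells of mice 1 and 2, against 9.08 and 7.28 CPM in chemokine-low cells. Ptx3, a secreted pattern recognition protein, was at 563 and 429.7 CPM in chemokine-high cells of mice 1 and 2, against 4.75 and 2.64 CPM in chemokine-low cells. Tnfaip6, also called TSG-6, which binds hyaluronan and modifies its cross-linking, was at 3928 and 3149 CPM in chemokine-high cells of mice 1 and 2, against 307 and 238 CPM in chemokine-low cells. Tnfaip6 was thus the one of the 6 with a clear level in chemokine-low cells, where 32.9% and 34.3% of cells had a UMI. Chemokine-high cells held 5.98% and 4.86% of all UMIs of the libraries' cells, but 39.4% and 32.6% of the Cxcl1 UMIs and 49.2% and 48.3% of the Ccl7 UMIs.

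Free RNA sets a floor under these values. Cxcl1 was detected in 95.7% and 91.8% of chemokine-high cells, against 18.9% and 5.00% of T cells (37 and 20 cells, median depths 3602 and 3516.5 UMIs), a cell type not known for this gene. In chemokine-low cells, where the rule allows at most 1 of the 6 genes, the share was 8.70% and 6.64%. It was 17.5% and 17.3% in Schwann cells and 36.8% and 44.03% in cartilage cells, which were deeper (median 6781.5 UMIs in mouse 1). Some other classes held rule genes at high levels. In mouse 1, the 38 mast cells had Ccl7 at 5235 CPM, above the 3461 CPM of chemokine-high cells. The 46 pericytes and smooth muscle cells of mouse 1 had Il6 at 772 CPM, against 986 CPM in chemokine-high cells. For each gene the remaining classes of mouse 1 with a level were lower. In barcodes of at most 50 UMIs, which hold mostly free RNA, Cxcl1 reached 874 and 648 CPM. The plot of the 6 genes shows chemokine-high cells above that level for each gene in both mice.

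**Figure D1:**
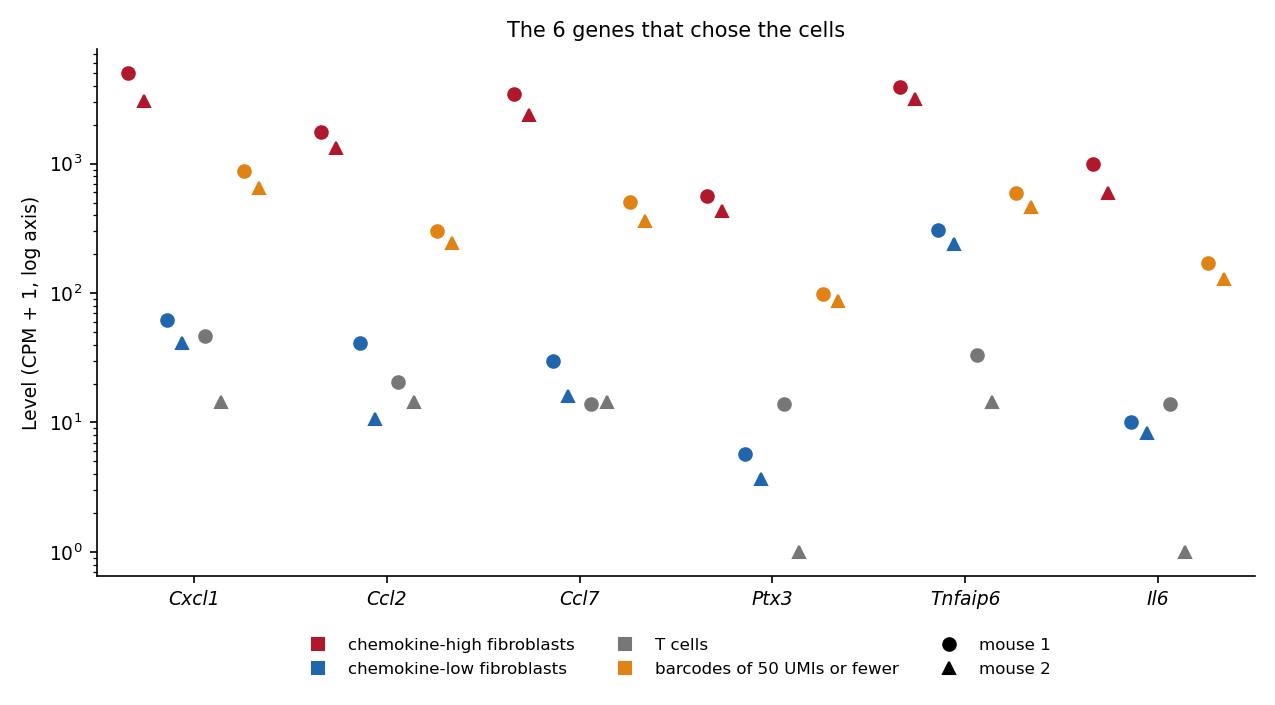
Levels of the 6 genes used by the rule, in CPM plus 1 on a log axis, for each mouse (circle, mouse 1; triangle, mouse 2), in chemokine-high fibroblasts, chemokine-low fibroblasts, T cells and barcodes of at most 50 UMIs. Cxcl1 stood at 4990.1 and 3018 CPM in chemokine-high cells, against 61.3 and 40.1 CPM in chemokine-low cells; a point at 1 is a level of 0.

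The threshold of 4 genes cuts a continuous range. Just inside it, the 594 and 386 cells with exactly 4 genes had Cxcl1 at 3583 and 2265 CPM, against 1490.3 and 1367 CPM just outside it, in the 604 and 457 cells with exactly 3. Il6 was at 620.2 and 349 CPM inside, against 333 and 228 CPM outside. All 6 genes were detected in 204 and 114 cells. Cells with more of the genes were also deeper, with median depths of 2213, 3014 and 3465 UMIs for 4, 5 and 6 genes in mouse 1 and 3287.5, 3591.5 and 4078 UMIs in mouse 2.

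Within chemokine-high cells the 6 genes took a median of 1.32% of a cell's UMIs in mouse 1 and 1.05% in mouse 2, with highest values of 5.89% and 4.44%. The lower quartiles were 0.804% and 0.628%. Ptx3 was the gene most often missing, in 58.0% and 53.4% of chemokine-high cells, followed by Il6 in 35.9% and 35.0% and Ccl2 in 20.4% and 24.9%. Tnfaip6 was missing in 2.90% and 3.56%. Cxcl1, Ccl7 and Tnfaip6 were thus the 3 genes that nearly every chemokine-high cell held.

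**Figure D2:**
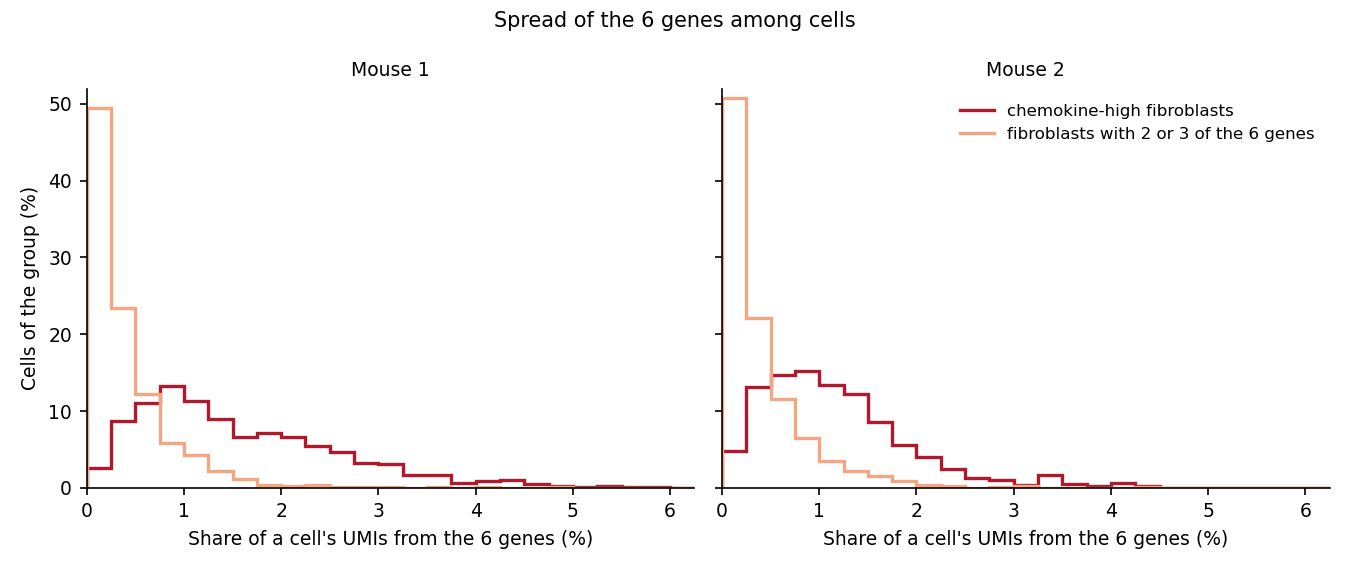
Share of a cell's UMIs from the 6 rule genes, in percent (bins of 0.25), as a percent of the cells of each group, in chemokine-high fibroblasts and in fibroblasts with 2 or 3 of the 6 genes, for each mouse. Chemokine-high cells had medians of 1.32% and 1.05% and overlapped the fibroblasts with 2 or 3 genes.

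Across chemokine-high cells thinned to 2000 UMIs (863 and 614 cells), the rank correlations between the 6 genes were weak. They ran from 0.0124 (Ccl2 with Il6) to 0.334 (Cxcl1 with Il6) in mouse 1 and from -0.0392 (Ccl2 with Il6) to 0.203 (Cxcl1 with Ccl7) in mouse 2. These are descriptions over cells that share a library and that were chosen on the same genes, so they carry no p. Ccl2 and Il6 were the pair with the lowest value in both mice.

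The sequences just before the start of some chemokine genes are shown because NF-κB genes were higher in the same cells, as described below. RefSeq promoters (GRCm38.p6) were at hand for 4 of the 6 rule genes, Cxcl1, Il6, Tnfaip6 and Ptx3, and for 8 of the 10 other chemokine genes that passed the test below. Then 4 motifs were searched on both strands of the 250 bases before the start: the NF-κB motif, AP-1 (TGANTCA), C/EBP (TTGCNNAA) and the TATA box (TATAAA). The NF-κB motif was in 5 of these 12 windows (Cxcl1, Il6, Cxcl2, Cxcl3 and Cxcl10), and in 3.90% of 32851 windows of all genes. AP-1 was in 3 (Il6, Tnfaip6, Cxcl10; 6.75% of all), C/EBP in 2 (Il6, Ptx3; 9.56% of all) and the TATA box in 3 (Ccl8, Cxcl3, Cxcl9; 12.4% of all). No AP-1 match overlapped an NF-κB match. The windows of Cxcl1 at chr5:90890995-90891244 (plus strand), Il6 at chr5:30012864-30013113 (plus strand), Cxcl2 at chr5:90903649-90903898 (plus strand) and Cxcl10 at chr5:92348890-92349139 (minus strand) follow, 5′ to 3′ and ending at the base before the start, with NF-κB matches in capitals.
Cxcl1: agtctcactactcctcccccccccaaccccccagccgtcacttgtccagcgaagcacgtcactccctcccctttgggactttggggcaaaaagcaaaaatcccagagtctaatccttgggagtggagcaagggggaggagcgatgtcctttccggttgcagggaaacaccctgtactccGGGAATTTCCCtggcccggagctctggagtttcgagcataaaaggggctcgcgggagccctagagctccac
Il6: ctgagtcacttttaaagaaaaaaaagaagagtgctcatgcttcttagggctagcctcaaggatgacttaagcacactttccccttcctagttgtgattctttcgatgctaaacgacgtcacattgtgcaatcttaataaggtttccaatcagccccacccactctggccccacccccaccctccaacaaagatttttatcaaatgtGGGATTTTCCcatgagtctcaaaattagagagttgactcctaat
Cxcl2: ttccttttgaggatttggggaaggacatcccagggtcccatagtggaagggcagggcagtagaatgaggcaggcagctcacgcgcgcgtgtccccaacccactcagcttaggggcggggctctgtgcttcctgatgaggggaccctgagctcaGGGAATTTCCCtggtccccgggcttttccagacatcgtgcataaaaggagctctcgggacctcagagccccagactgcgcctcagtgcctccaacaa
Cxcl10: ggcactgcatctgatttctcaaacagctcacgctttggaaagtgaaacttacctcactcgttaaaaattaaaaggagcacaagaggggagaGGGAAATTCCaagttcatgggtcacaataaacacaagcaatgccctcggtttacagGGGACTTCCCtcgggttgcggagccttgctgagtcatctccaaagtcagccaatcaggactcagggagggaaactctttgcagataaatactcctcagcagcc

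In Cxcl1 the motif matched on both strands of 11 overlapping bases, from 71 to 61 bases before the start, and the same letters stood 97 to 87 bases before the start of its neighbour Cxcl2. In Il6 the match lay 44 to 35 bases before the start, with a C/EBP match 128 to 121 and an AP-1 match 249 to 243 bases before it. Cxcl10 held a pair of NF-κB matches, at 159 to 150 and 103 to 94 bases, and an AP-1 match at 74 to 68. A match is a run of letters and not a measured binding site.

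Genes outside the rule were compared by summing counts per mouse over fibroblasts with 0, 1, 2, 3 or 4 to 6 of the rule genes and fitting the 10 sums with edgeR, with the mouse as a block. The contrast is chemokine-high minus the mean of the groups with 0 and 1 gene, and the 13 rule genes were not tested. Of 15731 genes, 5234 passed an adjusted p of 0.05 (33.3%), of which 3000 were higher (19.1%) and 2234 lower (14.2%) in chemokine-high cells, with a median log2 fold change of -0.04 over all genes. By the CPM of each mouse, 4786 of these 5234 genes had the direction of the call in both mice. Fold changes use TMM scaling, which assumes that most genes do not change. Scaling to library size alone moved the median of all genes by 0.31, and then 7035 genes passed (44.7%), 1640 higher (10.4%) and 5395 lower (34.3%). All of those 1640 genes were also higher under TMM, and all 2234 lower genes were also lower under library size alone. Counts of lists are therefore given under both scalings, and the levels in CPM are not TMM-scaled. Where groups are said to separate or not to overlap, this describes 2 values per group. The share of all tested genes without overlap was not counted, so such statements add no support to a call.

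Other chemokines were higher in chemokine-high cells, among them ligands of Cxcr2 and Cxcr3. Among CXC and CX3C chemokines outside the rule, 6 of 10 tested genes were higher, with a median log2 fold change of 1.01 (library size alone: 5 higher, median 0.70). Cxcl2, a ligand of Cxcr2 like Cxcl1, was at 592 and 322 CPM in chemokine-high cells of mice 1 and 2, against 100.3 and 17.5 CPM in chemokine-low cells (log2 fold change 3.57 with an SE of 0.51, edgeR adjusted p = 0.00947). Both chemokine-high values lay above both chemokine-low values, but macrophages held far more, at 6456 and 4736 CPM. With chemokine-high and chemokine-low cells alone in the fit, the adjusted p of Cxcl2 was 0.217, and without the mouse as a block it was 0.0569.

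Cxcl10, the interferon-inducible ligand of Cxcr3, was at 47.5 and 39.6 CPM in chemokine-high cells, against 6.29 and 5.48 CPM in chemokine-low cells (log2 fold change 3.42 with an SE of 0.23, edgeR adjusted p = 1.12e-09). Cxcl9, of the same receptor, was at 6.44 and 25.99 CPM in chemokine-high cells, against 1.40 and 2.74 CPM in chemokine-low cells (log2 fold change 3.57 with an SE of 0.51, edgeR adjusted p = 1.33e-04), a low level that rested on 29 and 86 UMIs. For both genes the groups did not overlap. Cxcl14 was higher by a small amount, at 170.4 and 177 CPM in chemokine-high cells, against 143 and 139 CPM in chemokine-low cells (log2 fold change 0.60 with an SE of 0.09, edgeR adjusted p = 3.66e-05). Cxcl12, the homeostatic ligand of Cxcr4, did not pass, at 378 and 202 CPM in chemokine-high cells, against 389.7 and 225 CPM in chemokine-low cells (edgeR adjusted p = 0.0671). Cxcl13, Cxcl5 and Cx3cl1 did not pass either.

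Of the CC chemokines outside the rule, 4 of 9 tested genes were higher, with a median log2 fold change of 0.58 (library size alone: 2 higher and 2 lower, median 0.26). With the cells of highest doublet score left out, this median was -0.063. Ccl8, another monocyte attractant, was at 70.6 and 121 CPM in chemokine-high cells, against 38.6 and 35.4 CPM in chemokine-low cells (log2 fold change 1.65 with an SE of 0.23, edgeR adjusted p = 0.00144). Ccl11, eotaxin, which attracts eosinophils, was at 209 and 199 CPM in chemokine-high cells, against 118 and 120.4 CPM in chemokine-low cells (log2 fold change 1.10 with an SE of 0.27, edgeR adjusted p = 0.0358), with an adjusted p of 0.0616 under library size alone. Against cells with 0 genes alone the edgeR adjusted p of Ccl11 was 0.0623. Ccl19, a ligand of Ccr7, was at 41.5 and 70.4 CPM in chemokine-high cells, against 33.4 and 50.5 CPM in chemokine-low cells (log2 fold change 0.73 with an SE of 0.12, edgeR adjusted p = 1.24e-04). Ccl3, made mostly by leukocytes, was also called, at 16.9 and 3.02 CPM in chemokine-high cells, against 11.6 and 1.48 CPM in chemokine-low cells (log2 fold change 1.00 with an SE of 0.31, edgeR adjusted p = 0.0185), and did not pass under library size alone (0.0813). Ccl4 and Ccl5 did not pass.

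Growth factors of myeloid cells were among the cytokines that were higher. Among cytokines and myeloid growth factors, 8 of 17 tested genes were higher and 2 were lower, with a median log2 fold change of 0.68 (library size alone: 8 higher and 2 lower, median 0.37). Csf1, which sustains macrophages, was at 399.6 and 192 CPM in chemokine-high cells, against 128 and 75.4 CPM in chemokine-low cells (log2 fold change 1.83 with an SE of 0.10, edgeR adjusted p = 8.33e-11), with no overlap between the groups. Csf2 (GM-CSF) was at 21.3 and 19.04 CPM in chemokine-high cells, against 1.12 and 0.633 CPM in chemokine-low cells (log2 fold change 4.80 with an SE of 0.38, edgeR adjusted p = 1.39e-08), and rested on 96 and 63 UMIs from 1.53% and 1.45% of the chemokine-high cells. In cells with 4, 5 and 6 rule genes, Csf2 was at 4.96, 26.05 and 46.1 CPM in mouse 1 and 7.93, 17.2 and 54.7 CPM in mouse 2. Csf2 was thus found in few cells. Its pooled level was higher in cells with more rule genes, and a few cells can set such a level. Csf3 did not pass, at 19.3 and 1.81 CPM in chemokine-high cells, against 7.68 and 0.844 CPM in chemokine-low cells (edgeR adjusted p = 0.213).

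Il7, which supports lymphocytes, was at 36.4 and 31.1 CPM in chemokine-high cells, against 12.01 and 3.48 CPM in chemokine-low cells (log2 fold change 2.85 with an SE of 0.57, edgeR adjusted p = 0.0165), and its antisense neighbour Gm16685 at 111 and 85.2 CPM in chemokine-high cells, against 29.9 and 2.21 CPM in chemokine-low cells (log2 fold change 3.87 with an SE of 0.84, edgeR adjusted p = 0.0317). The sources used here do not state whether strand was used in counting, so the 2 cannot be told apart. With chemokine-high and chemokine-low cells alone in the fit, the edgeR adjusted p of Gm16685 was 0.393. Kitl, the mast cell growth factor, was at 106 and 70.7 CPM in chemokine-high cells, against 56.99 and 26.8 CPM in chemokine-low cells (log2 fold change 1.45 with an SE of 0.13, edgeR adjusted p = 4.73e-08). Tslp, Il11, Lif and Il33 were also higher, by 1.29 ± 0.26, 1.16 ± 0.26, 0.84 ± 0.15 and 0.68 ± 0.11 on the log2 scale (SE). The call of Lif rests on the mouse as a block (adjusted p = 0.654 in edgeR without it), and that of Il7 does too (0.0546). Lif differed between the mice more than between the groups, at 87.1 and 14.8 CPM in chemokine-high cells, against 56.7 and 11.6 CPM in chemokine-low cells. The values of Il33 overlapped as well, at 129 and 90.05 CPM in chemokine-high cells, against 92.9 and 75.3 CPM in chemokine-low cells. Il15 was lower, at 2.89 and 3.63 CPM in chemokine-high cells, against 9.08 and 9.18 CPM in chemokine-low cells (log2 fold change -1.16 with an SE of 0.39, edgeR adjusted p = 0.0273). Il1rn was also lower (log2 fold change -1.63, edgeR adjusted p = 0.0165). Its call was lost without the mouse as a block (0.404) and with 5 or 6 rule genes required (0.111). Il1b, at 27.3 and 58.02 CPM in chemokine-high cells, against 138 and 41.3 CPM in chemokine-low cells, and Tnf, at 5.55 and 7.86 CPM in chemokine-high cells, against 12.4 and 2.53 CPM in chemokine-low cells, did not pass (edgeR adjusted p = 0.665 and 0.609), so a difference in these was not detectable here.

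**Figure D3:**
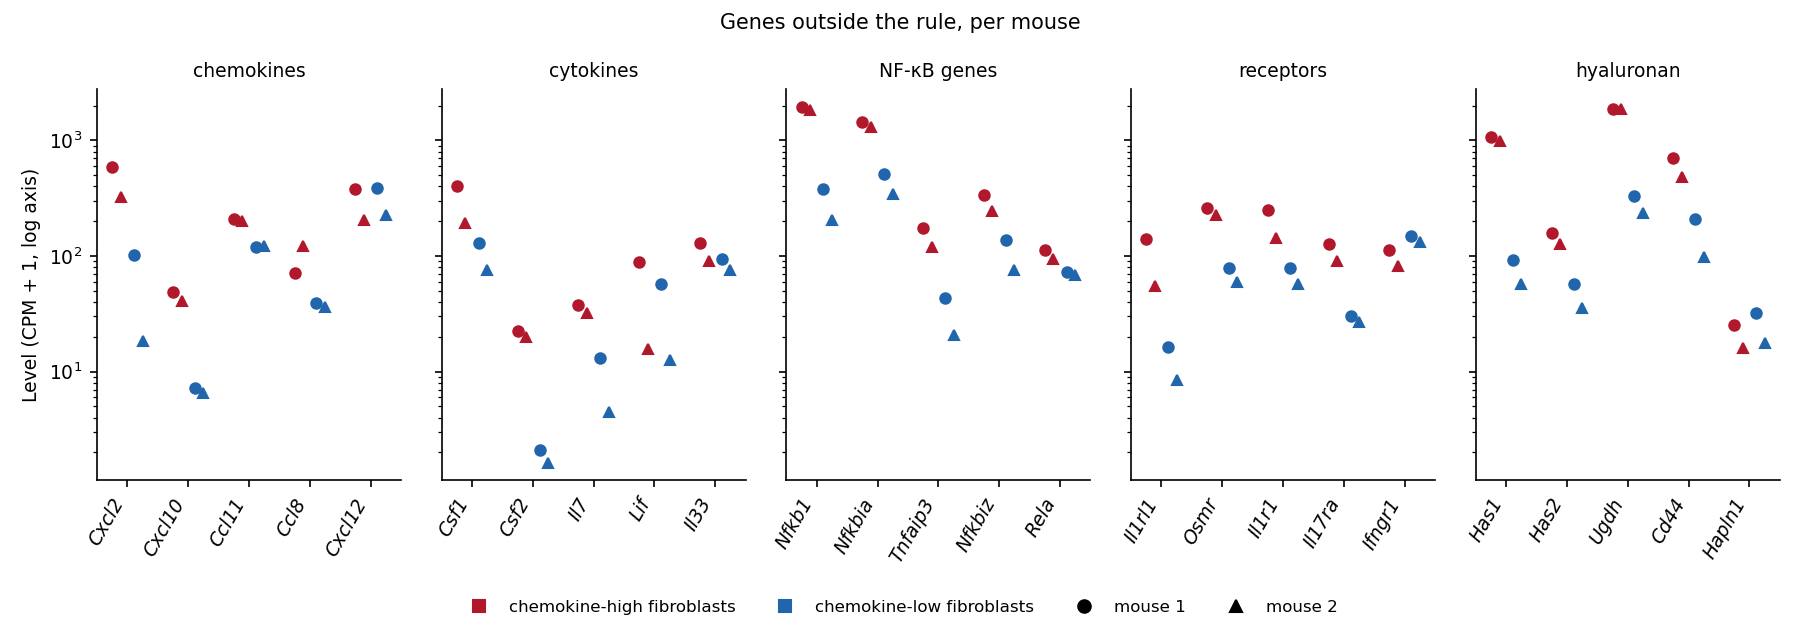
Levels of 25 genes that the rule did not use, in CPM plus 1 on a log axis, for each mouse (circle, mouse 1; triangle, mouse 2), in chemokine-high fibroblasts (left of each pair) and chemokine-low fibroblasts. Has1 stood at 1079 and 989.9 CPM in chemokine-high cells, against 91.6 and 56.6 CPM in chemokine-low cells, while the values of Cxcl12 and Hapln1 overlapped.

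NF-κB subunits and their inhibitors were higher together. Of this list, 13 of 18 tested genes were higher, with a median log2 fold change of 1.23 (library size alone: 12 higher and 1 lower, median 0.92). Nfkb1, which encodes the p105 precursor of the p50 subunit, was at 1954 and 1819 CPM in chemokine-high cells of mice 1 and 2, against 378 and 203 CPM in chemokine-low cells (log2 fold change 3.15 with an SE of 0.19, edgeR adjusted p = 3.51e-04). A UMI of Nfkb1 was found in 91.9% and 91.95% of chemokine-high cells, against 40.9% and 34.9% of chemokine-low cells. The other subunits had smaller fold changes: Nfkb2 by 2.00 ± 0.15, Relb by 1.25 ± 0.11, Rel by 1.22 ± 0.15 and Rela by 0.87 ± 0.10 (log2, SE). Rela was at 111 and 93.98 CPM in chemokine-high cells, against 71.9 and 67.7 CPM in chemokine-low cells, again without overlap.

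Inhibitors that NF-κB itself induces were higher as well. Nfkbia, which holds NF-κB in the cytoplasm, was at 1439 and 1303 CPM in chemokine-high cells, against 513 and 345 CPM in chemokine-low cells (log2 fold change 2.05 with an SE of 0.07, edgeR adjusted p = 6.88e-12). Tnfaip3 (A20), a ubiquitin-editing enzyme that ends the signal, was at 174 and 119 CPM in chemokine-high cells, against 42.2 and 19.9 CPM in chemokine-low cells (log2 fold change 2.60 with an SE of 0.13, edgeR adjusted p = 3.00e-11). Zc3h12a (regnase-1), a ribonuclease that degrades Il6 mRNA, was at 73.7 and 72.2 CPM in chemokine-high cells, against 23.3 and 13.9 CPM in chemokine-low cells (log2 fold change 2.31 with an SE of 0.15, edgeR adjusted p = 5.49e-10). Nfkbiz, a nuclear cofactor needed for Il6, rose by 1.91 ± 0.10, Birc3 by 2.26 ± 0.11 and Bcl3 by 1.75 ± 0.14 (log2, SE). In none of these did the values of the groups overlap. Tnip1 was the smallest of the calls at 0.62 ± 0.14, and Nfkbid, Nfkbie, Cyld, Traf1 and Tnip3 did not pass.

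Receptors that lead to this response or read its products were partly higher. Of cytokine and Toll-like receptors, 11 of 21 tested genes were higher, with a median log2 fold change of 0.57 (library size alone: 9 higher and 2 lower, median 0.26). Il1rl1, the receptor of Il33, was at 139 and 54.1 CPM in chemokine-high cells, against 15.4 and 7.49 CPM in chemokine-low cells (log2 fold change 3.43 with an SE of 0.13, edgeR adjusted p = 1.11e-12). Osmr, the oncostatin M receptor, was at 260.3 and 225 CPM in chemokine-high cells, against 77.7 and 58.3 CPM in chemokine-low cells (log2 fold change 2.16 with an SE of 0.09, edgeR adjusted p = 3.54e-12). Il1r1, the interleukin-1 receptor, was at 249.7 and 144 CPM in chemokine-high cells, against 77.5 and 56.5 CPM in chemokine-low cells (log2 fold change 1.83 with an SE of 0.10, edgeR adjusted p = 1.47e-10). All 3 separated the groups in both mice. Il17ra was higher by 2.28 ± 0.12, Il4ra by 2.20 ± 0.20 and the adaptor Myd88 by 1.65 ± 0.16 (log2, SE). Ifngr1, Ifnar1, Tlr4 and Lifr did not pass, with log2 fold changes of -0.24, 0.07, 0.18 and 0.01.

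The transcription factors and feedback genes of the interleukin-6 pathway were higher too. Of STAT3, C/EBP and acute phase genes, 11 of 14 tested genes were higher, with a median log2 fold change of 1.40 (library size alone: 10 higher, median 1.09). Cebpb, which acts with NF-κB on Il6, was at 330.3 and 205 CPM in chemokine-high cells, against 98.6 and 49.04 CPM in chemokine-low cells (log2 fold change 2.26 with an SE of 0.09, edgeR adjusted p = 2.61e-12). Its relative Cebpd was at 918 and 933 CPM in chemokine-high cells, against 361 and 284 CPM in chemokine-low cells (log2 fold change 1.89 with an SE of 0.07, edgeR adjusted p = 6.57e-13). Neither overlapped between the groups. Socs3, the feedback inhibitor of Il6st signalling, was at 445 and 577 CPM in chemokine-high cells, against 196 and 127 CPM in chemokine-low cells (log2 fold change 2.08 with an SE of 0.28, edgeR adjusted p = 0.00721). With chemokine-high and chemokine-low cells alone in the fit, the adjusted p of Socs3 was 0.059. Sod2 and Pim1 were higher by 1.97 ± 0.11 and 1.93 ± 0.09 and Stat3 itself by 1.13 ± 0.08 (log2, SE). The acute phase genes Saa3, Lcn2 and Hp did not pass.

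Immediate early genes, which are induced within minutes and also by tissue digestion, were higher in nearly the whole list: 23 of 25 tested genes were higher, with a median log2 fold change of 1.62 (library size alone: 21 higher, median 1.32). Myc was at 398 and 306 CPM in chemokine-high cells, against 92.2 and 37.97 CPM in chemokine-low cells (log2 fold change 3.06 with an SE of 0.20, edgeR adjusted p = 4.82e-05), and Fosl1, an AP-1 subunit, at 124 and 56.8 CPM in chemokine-high cells, against 31.4 and 5.91 CPM in chemokine-low cells (log2 fold change 2.84 with an SE of 0.25, edgeR adjusted p = 8.98e-05). Zfp36, which destabilises chemokine and cytokine mRNAs, was at 962 and 1003 CPM in chemokine-high cells, against 296 and 203 CPM in chemokine-low cells (log2 fold change 2.41 with an SE of 0.15, edgeR adjusted p = 4.13e-05). Fos and Jun had the smallest log2 fold changes of the calls, 0.73 ± 0.19 and 0.55 ± 0.11: Fos was at 1225 and 1116 CPM in chemokine-high cells, against 1223 and 695 CPM in chemokine-low cells. The values of Fos and Jun overlapped between the groups, whereas those of Fosl1 and Fosb did not. Under library size alone Fos and Jun did not pass (edgeR adjusted p = 0.156 and 0.13). Within the chemokine-high cells both were lower with more rule genes, and Fos in cells with all 6 was at 531 and 706 CPM. Of heat shock genes, 11 of 13 tested genes were higher, with a median log2 fold change of 1.02 (library size alone: 11 higher, median 0.71). Bag3, a chaperone partner, was at 335 and 338 CPM in chemokine-high cells, against 153 and 109 CPM in chemokine-low cells (log2 fold change 1.74 with an SE of 0.09, edgeR adjusted p = 7.31e-11). The part of the digestion in these levels was not tested.

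Genes of hyaluronan synthesis were higher. Of hyaluronan matrix genes, 7 of 12 tested genes were higher, with a median log2 fold change of 0.63 (library size alone: 6 higher and 2 lower, median 0.32). Has1, a hyaluronan synthase of the plasma membrane, was at 1079 and 989.9 CPM in chemokine-high cells of mice 1 and 2, against 91.6 and 56.6 CPM in chemokine-low cells (log2 fold change 4.31 with an SE of 0.14, edgeR adjusted p = 5.52e-08). It was detected in 73.9% and 72.3% of chemokine-high cells, against 14.8% and 11.4% of chemokine-low cells. Chemokine-high cells held 29.6% and 29.6% of all Has1 UMIs of the 2 libraries' cells.

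Ugdh, which makes the glucuronic acid precursor of hyaluronan, was at 1854 and 1865 CPM in chemokine-high cells, against 329.8 and 234 CPM in chemokine-low cells (log2 fold change 3.12 with an SE of 0.16, edgeR adjusted p = 7.42e-05). Has2 was at 158 and 127 CPM in chemokine-high cells, against 56.4 and 34.5 CPM in chemokine-low cells (log2 fold change 2.02 with an SE of 0.14, edgeR adjusted p = 8.08e-08), and Cd44, the main hyaluronan receptor, at 703 and 479.6 CPM in chemokine-high cells, against 207 and 96.7 CPM in chemokine-low cells (log2 fold change 2.38 with an SE of 0.10, edgeR adjusted p = 8.93e-11). Synthase, precursor enzyme and receptor were thus all above both chemokine-low values. Vcan, a proteoglycan that binds hyaluronan, was higher by 0.98 ± 0.08 (log2, SE). The link protein Hapln1, Has3 and the hyaluronidases Hyal1 and Hyal2 did not pass.

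Surface and prostaglandin genes gave a mixed picture. Of adhesion and surface genes, 7 of 10 tested genes were higher and 1 was lower, with a median log2 fold change of 0.44 (library size alone: 4 higher and 2 lower, median 0.13). Vcam1, which binds integrins of leukocytes, was at 91.1 and 66.8 CPM in chemokine-high cells, against 13.7 and 6.64 CPM in chemokine-low cells (log2 fold change 3.37 with an SE of 0.15, edgeR adjusted p = 8.99e-12). Icam1, another integrin ligand, was at 241 and 208 CPM in chemokine-high cells, against 69.6 and 63.2 CPM in chemokine-low cells (log2 fold change 2.10 with an SE of 0.10, edgeR adjusted p = 1.37e-11). Both were above both chemokine-low values. Pdpn, podoplanin, was at 337 and 254 CPM in chemokine-high cells, against 123 and 103 CPM in chemokine-low cells (log2 fold change 1.71 with an SE of 0.09, edgeR adjusted p = 4.45e-11). Cd9 was lower, at 619 and 521 CPM in chemokine-high cells, against 1024 and 957 CPM in chemokine-low cells (log2 fold change -0.50 with an SE of 0.06, edgeR adjusted p = 5.30e-06). Of prostaglandin genes, 3 of 9 tested genes were higher and 2 were lower, with a median log2 fold change of 0.07 (library size alone: 2 higher and 3 lower, median -0.23): Ptgs2, the inducible cyclooxygenase, was at 739 and 341 CPM in chemokine-high cells, against 60.5 and 27.3 CPM in chemokine-low cells (log2 fold change 4.04 with an SE of 0.10, edgeR adjusted p = 9.14e-15), while Ptgs1, its constitutive counterpart, was lower at 12.4 and 4.53 CPM in chemokine-high cells, against 20.95 and 16.5 CPM in chemokine-low cells (log2 fold change -0.80 with an SE of 0.26, edgeR adjusted p = 0.0224). The call of Ptgs1 was lost in DESeq2 (its adjusted p = 0.114) and without the mouse as a block (0.124).

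**Figure D4:**
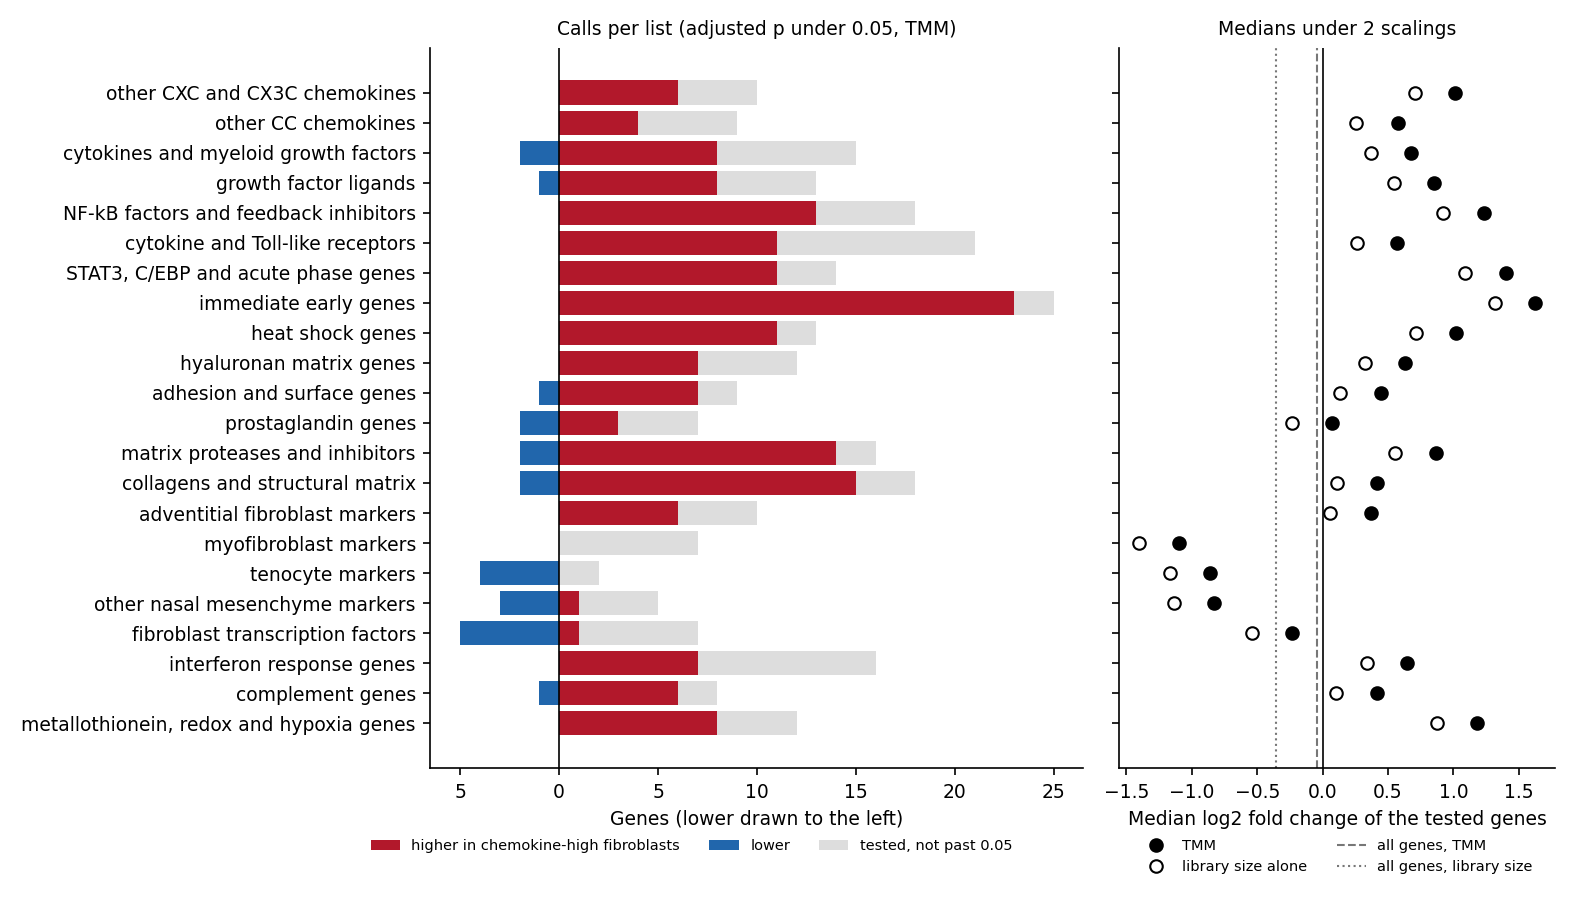
Left, number of genes of each list that were higher or lower in chemokine-high than in chemokine-low fibroblasts (edgeR adjusted p under 0.05, TMM) or did not pass. Right, median log2 fold change of the tested genes under TMM and under library size alone, with the medians of all genes as lines. Of the lists plotted, which leave out the markers of other cell types, immediate early genes had the highest median, 1.62, and myofibroblast markers the lowest, -1.10.

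Proteases that cut the matrix were mostly higher. Of matrix proteases and inhibitors, 14 of 18 tested genes were higher and 2 were lower, with a median log2 fold change of 0.86 (library size alone: 11 higher and 3 lower, median 0.55). Adamts1, which cleaves proteoglycans such as versican, was at 635 and 377 CPM in chemokine-high cells, against 132 and 88.7 CPM in chemokine-low cells (log2 fold change 2.58 with an SE of 0.17, edgeR adjusted p = 5.06e-05). Adamts4, of the same family, was at 140.2 and 108 CPM in chemokine-high cells, against 57.3 and 20.1 CPM in chemokine-low cells (log2 fold change 2.37 with an SE of 0.40, edgeR adjusted p = 0.0143; 0.153 against fibroblasts with 0 to 3 genes). Both separated the groups. Plaur, the urokinase receptor, was at 209 and 167 CPM in chemokine-high cells, against 52.5 and 35.5 CPM in chemokine-low cells (log2 fold change 2.46 with an SE of 0.11, edgeR adjusted p = 1.18e-11). Mmp3, stromelysin, was at 893 and 521 CPM in chemokine-high cells, against 293 and 278 CPM in chemokine-low cells (log2 fold change 1.59 with an SE of 0.15, edgeR adjusted p = 4.09e-04), and the inhibitor Timp1 was higher by 1.42 ± 0.12 (log2, SE). Mmp14 did not pass.

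Collagens and structural matrix genes differed by small amounts. Of collagens and structural matrix genes, 15 of 20 tested genes were higher and 2 were lower, with a median log2 fold change of 0.42 (library size alone: 8 higher and 4 lower, median 0.11). Col3a1 was at 10157 and 11009.6 CPM in chemokine-high cells, against 9888 and 9672 CPM in chemokine-low cells (log2 fold change 0.43 with an SE of 0.06, edgeR adjusted p = 1.39e-04), Fn1, fibronectin, at 2395 and 1910.1 CPM in chemokine-high cells, against 1777 and 1462 CPM in chemokine-low cells (log2 fold change 0.73 with an SE of 0.05, edgeR adjusted p = 4.49e-09) and Lox, which cross-links collagen, at 233 and 222 CPM in chemokine-high cells, against 129 and 162 CPM in chemokine-low cells (log2 fold change 0.98 with an SE of 0.13, edgeR adjusted p = 1.33e-04). Col3a1 did not pass under library size alone (edgeR adjusted p = 0.117). Each call was below 1 on the log2 scale, and 4 genes were lower under library size alone. Fmod, a collagen-binding proteoglycan of tendon, was lower at 189 and 229.7 CPM in chemokine-high cells, against 562 and 468 CPM in chemokine-low cells (log2 fold change -0.96 with an SE of 0.21, edgeR adjusted p = 0.0209).

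Myofibroblast markers had a median log2 fold change of -1.10 without a call in edgeR. None of the 7 myofibroblast markers passed in edgeR, at an unadjusted p under 0.05 there was 1 lower and 0 higher, and DESeq2 called 1 lower and 0 higher. Acta2, smooth muscle actin, was at 26.7 and 78.9 CPM in chemokine-high cells, against 140.4 and 141 CPM in chemokine-low cells (edgeR adjusted p = 0.198). Adventitial markers, which mark fibroblasts around vessels and in fascia, were partly higher: 6 of 10 tested genes were higher, with a median log2 fold change of 0.37 (library size alone: 2 higher and 2 lower, median 0.06). Ackr3, the scavenger receptor of Cxcl12, led them at 445 and 399 CPM in chemokine-high cells, against 230.3 and 266 CPM in chemokine-low cells (log2 fold change 1.11 with an SE of 0.09, edgeR adjusted p = 9.68e-09). Pi16 was at 1256 and 1153 CPM in chemokine-high cells, against 1073 and 969.6 CPM in chemokine-low cells (log2 fold change 0.57 with an SE of 0.12, edgeR adjusted p = 0.00894), and did not pass under library size alone, while Cd34 and Mfap5 did not pass under TMM.

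Of tenocyte markers, 4 of 6 tested genes were lower, with a median log2 fold change of -0.86 (library size alone: 4 lower, median -1.17). DESeq2 called 1 of the 6 lower. Scx, Mkx and Kera did not pass in DESeq2 (adjusted p = 0.172, 0.108 and 0.175) or in edgeR without the mouse as a block (adjusted p = 0.076, 0.141 and 0.157). Comp, a cartilage and tendon matrix protein, was at 79.1 and 46.2 CPM in chemokine-high cells, against 179 and 139 CPM in chemokine-low cells (log2 fold change -1.06 with an SE of 0.11, edgeR adjusted p = 7.97e-07). Of other nasal mesenchyme markers, 1 of 8 tested genes was higher and 3 were lower, with a median log2 fold change of -0.83 (library size alone: 3 lower, median -1.14). Dkk2, a modulator of Wnt signalling, was at 45.8 and 51.97 CPM in chemokine-high cells, against 119 and 107 CPM in chemokine-low cells (log2 fold change -0.91 with an SE of 0.12, edgeR adjusted p = 1.13e-05), and Cilp2 at 25.1 and 34.4 CPM in chemokine-high cells, against 61.04 and 79.7 CPM in chemokine-low cells (log2 fold change -0.93 with an SE of 0.14, edgeR adjusted p = 5.76e-05). With 2 of Pi16, Cd34, Ly6a and Mfap5 required in both groups, Comp and Cilp2 did not pass (edgeR adjusted p = 0.0951 and 0.0957), nor did Scx and Mkx (0.284 and 0.257). Of fibroblast transcription factors, 1 of 12 tested genes was higher and 5 were lower, with a median log2 fold change of -0.23 (library size alone: 1 higher and 8 lower, median -0.54). Osr1, a factor of embryonic mesenchyme, was at 48.2 and 47.4 CPM in chemokine-high cells, against 138 and 142 CPM in chemokine-low cells (log2 fold change -1.25 with an SE of 0.12, edgeR adjusted p = 1.08e-07). Meox2, another, was at 10.2 and 2.72 CPM in chemokine-high cells, against 31.99 and 19.5 CPM in chemokine-low cells (log2 fold change -1.73 with an SE of 0.28, edgeR adjusted p = 1.58e-04). Neither overlapped between the groups. Ebf1 was higher at 768 and 659.7 CPM in chemokine-high cells, against 634 and 515 CPM in chemokine-low cells (log2 fold change 0.63 with an SE of 0.08, edgeR adjusted p = 1.04e-05).

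Chemokine-high cells were found in each kind of fibroblast that markers could separate, at unequal shares. Among fibroblasts with 2 or more of 10 adventitial markers, 28.8% and 19.9% were chemokine-high, against 10.6% (95% Clopper-Pearson interval 8.26% to 13.2%) and 4.05% (2.29% to 6.60%) of those with fewer. Among cells thinned to 2000 UMIs, 3 or more rule genes were found in 35.6% and 25.5%, against 17.9% and 9.43%, in the same order. Fibroblasts with 2 or more of 6 tenocyte markers went the other way, with 15.6% and 10.9% chemokine-high, against 27.9% and 19.4% of the others. After thinning, 19.6% and 14.4% of them held 3 or more rule genes, against 34.6% and 24.4%.

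The makeup of the 6 genes also differed between these kinds. In chemokine-high cells with 2 or more tenocyte markers (90 and 49 cells), Ptx3 was at 332 and 93.3 CPM, against 589 and 475 CPM in the other chemokine-high cells. Tnfaip6 was at 2149.9 and 1460.3 CPM, against 4135 and 3379 CPM. Ccl2 did not follow them, at 1639 and 1856 CPM, against 1764 and 1239 CPM. In the 66 and 15 chemokine-high cells with under 2 adventitial markers, Il6 was at 1773 and 1607 CPM, against 962 and 579.9 CPM in those with 2 or more. These levels of rule genes are descriptions.

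Growth factor ligands were mostly higher. Of these, 8 of 14 tested genes were higher and 1 was lower, with a median log2 fold change of 0.85 (library size alone: 8 higher and 2 lower, median 0.55). Vegfa, the endothelial growth factor, was at 176 and 111 CPM in chemokine-high cells, against 76.3 and 71.4 CPM in chemokine-low cells (log2 fold change 1.27 with an SE of 0.12, edgeR adjusted p = 1.44e-07), and Bmp2 at 138 and 92.2 CPM in chemokine-high cells, against 69.3 and 48.1 CPM in chemokine-low cells (log2 fold change 1.29 with an SE of 0.10, edgeR adjusted p = 1.54e-08). Ereg, epiregulin, passed at a low level, 6.89 and 4.83 CPM in chemokine-high cells, against 0.559 and 0 CPM in chemokine-low cells (edgeR adjusted p = 4.04e-05), which rested on 31 and 16 UMIs in chemokine-high cells. Bmp4 was lower, at 83.3 and 112 CPM in chemokine-high cells, against 145 and 169 CPM in chemokine-low cells (log2 fold change -0.38 with an SE of 0.10, edgeR adjusted p = 0.0051), so the 2 related ligands moved in opposite directions. Igf1, Fgf7 and Hgf did not pass.

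Metallothioneins and some redox genes were higher. Of metallothionein, redox and hypoxia genes, 8 of 12 tested genes were higher, with a median log2 fold change of 1.18 (library size alone: 6 higher, median 0.87). Mt1, a metallothionein that binds zinc and copper, was at 11332 and 11928 CPM in chemokine-high cells, against 2741 and 2309.7 CPM in chemokine-low cells (log2 fold change 2.55 with an SE of 0.08, edgeR adjusted p = 3.31e-07). Mt2 was at 6703 and 5753 CPM in chemokine-high cells, against 1361 and 963 CPM in chemokine-low cells (log2 fold change 2.81 with an SE of 0.06, edgeR adjusted p = 9.14e-15). Both lay far above both chemokine-low values. Hmox1, haem oxygenase, was at 519 and 202 CPM in chemokine-high cells, against 152 and 35.1 CPM in chemokine-low cells (log2 fold change 2.68 with an SE of 0.16, edgeR adjusted p = 2.47e-06; 0.135 without the mouse as a block), and Txnrd1, thioredoxin reductase, at 388 and 291 CPM in chemokine-high cells, against 117 and 64.96 CPM in chemokine-low cells (log2 fold change 2.28 with an SE of 0.09, edgeR adjusted p = 1.26e-12). Srxn1 was higher too (log2 fold change 1.90, edgeR adjusted p = 1.01e-07), also under library size alone (1.59). Nqo1, Gclm and Slc7a11, further targets of the oxidative stress factor Nrf2, did not pass.

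Some interferon and complement genes were higher. Of interferon response genes, 7 of 16 tested genes were higher, with a median log2 fold change of 0.64 (library size alone: 5 higher and 2 lower, median 0.34). Gbp2, a guanylate-binding protein, was at 123 and 137 CPM in chemokine-high cells, against 23.3 and 15.1 CPM in chemokine-low cells (log2 fold change 3.26 with an SE of 0.14, edgeR adjusted p = 8.99e-12), and Irf1, which NF-κB also induces, at 100.2 and 151 CPM in chemokine-high cells, against 62.3 and 55.6 CPM in chemokine-low cells (log2 fold change 1.44 with an SE of 0.18, edgeR adjusted p = 4.48e-04). Irgm1, Gbp3, Ifit1, Irf7 and Isg15 were higher too, with log2 fold changes of 1.54, 1.16, 1.11, 0.80 and 0.75. Under library size alone Irf7 and Isg15 did not pass (edgeR adjusted p = 0.0976 and 0.0531). Against fibroblasts with 0 to 3 genes Gbp3 and Ifit1 did not pass (0.0511 and 0.0649). Ifit2, Ifit3 and Bst2 did not pass in the main fit, so the list did not move as a whole. Of complement genes, 6 of 9 tested genes were higher and 1 was lower, with a median log2 fold change of 0.41 (library size alone: 3 higher and 1 lower, median 0.10): C3, the central component, was at 609 and 478 CPM in chemokine-high cells, against 282 and 196 CPM in chemokine-low cells (log2 fold change 1.51 with an SE of 0.07, edgeR adjusted p = 1.18e-11), C4b was higher by 1.11 ± 0.12 and C7 was lower, with a log2 fold change of -0.74 ± 0.13 (SE). Without the mouse as a block in edgeR, the adjusted p was 0.241 for C4b and 0.396 for C7.

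Among all genes with at least 50 CPM in the higher group of both mice, the largest fold changes were those of Gm17268 and Veph1. Gm17268 was at 1727 and 1289 CPM in chemokine-high cells, against 49.7 and 15.3 CPM in chemokine-low cells (log2 fold change 6.32 with an SE of 0.30, edgeR adjusted p = 2.05e-04), and Veph1 at 559 and 434 CPM in chemokine-high cells, against 17.04 and 8.44 CPM in chemokine-low cells (log2 fold change 5.72 with an SE of 0.19, edgeR adjusted p = 5.67e-08). In the GRCm38 annotation Gm17268 overlaps Ccl2 and Veph1 overlaps Ptx3, each on the opposite strand. Without strand their reads cannot be told apart from those of the rule genes. With chemokine-high and chemokine-low cells alone in the fit, the adjusted p of Gm17268 was 0.115. Mid1-ps1 (4.79 ± 0.37), Gm21860 (4.54 ± 0.13), Gm15726 (4.35 ± 0.22) and G530011O06Rik (3.96 ± 0.20) are near-copies of Mid1 or overlap it or each other, and Ifi203 (4.60 ± 0.14) shares reads with its gene family, so these log2 fold changes are uncertain as to the gene.

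The remaining genes of this kind were Has1 and Ptgs2, given above, and Hk2, Sugct and Gm16685. Hk2, hexokinase 2, the first enzyme of glycolysis, was at 1748 and 2041 CPM in chemokine-high cells, against 180.3 and 153 CPM in chemokine-low cells (log2 fold change 3.95 with an SE of 0.16, edgeR adjusted p = 2.33e-05). Sugct, a glutarate CoA-transferase, was at 345 and 248 CPM in chemokine-high cells, against 19.7 and 15.6 CPM in chemokine-low cells (log2 fold change 4.40 with an SE of 0.12, edgeR adjusted p = 9.14e-15). The groups did not overlap for either gene. The largest decreases were those of Gm55276, Gm55118, Gm55094 and Gm54867, for which no role was given in the tables used here, with log2 fold changes of -2.68 ± 0.12, -2.57 ± 0.07, -2.49 ± 0.10 and -2.49 ± 0.16 (SE).

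Zc3h7a, a zinc finger protein, was lower at 1687 and 1613 CPM in chemokine-high cells of mice 1 and 2, against 9959.9 and 9581 CPM in chemokine-low cells (log2 fold change -2.27 with an SE of 0.05, edgeR adjusted p = 7.66e-16). The groups lay far apart in both mice. Txnip, an inhibitor of glucose uptake, was lower at 23.8 and 21.2 CPM in chemokine-high cells, against 100.2 and 121 CPM in chemokine-low cells (log2 fold change -1.97 with an SE of 0.13, edgeR adjusted p = 1.02e-09), together with Gm15441, which overlaps it on the opposite strand, at -1.93 ± 0.19. Clu, clusterin, was at 128 and 81.3 CPM in chemokine-high cells, against 430.5 and 483 CPM in chemokine-low cells (log2 fold change -1.86 with an SE of 0.34, edgeR adjusted p = 0.0178), and Peak1, a pseudokinase, at 568 and 480.5 CPM in chemokine-high cells, against 2383 and 1909 CPM in chemokine-low cells (log2 fold change -1.74 with an SE of 0.06, edgeR adjusted p = 1.10e-13). Nox4 and Angptl7 were lower, with log2 fold changes of -1.55 ± 0.12 and -1.49 ± 0.30 (SE), and Angptl7 lies within Mtor on the opposite strand. Lncppara was lower as well (-2.31 ± 0.19). With adventitial markers required in both groups, Clu and Angptl7 did not pass (edgeR adjusted p = 0.191 and 0.144).

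A graded pattern was looked for over the groups with 0, 1, 2, 3 and 4 to 6 rule genes in both mice. Among 2628 genes with at least 50 CPM in chemokine-high cells, the 10 whose log2(CPM + 10) followed the mean of the rule genes most closely, with Pearson r from 0.976 to 0.987 over 10 sums that share 2 libraries, were Slc16a10, Pabpc1, Has1, Slc38a2, Hk2, Ccdc146, Ugdh, Cebpd, Raver2 and Icam1. Has1 was at 58.3, 115, 247, 537 and 1079 CPM from 0 to 4 to 6 genes in mouse 1 and at 33.7, 75.4, 216, 505 and 989.9 CPM in mouse 2. Hk2 was at 120.4, 222, 535, 996 and 1748 CPM in mouse 1 and at 98.6, 198, 617, 1374 and 2041 CPM in mouse 2. Both increased at every step in both mice, as the plot of the 10 genes shows. They were chosen for following the rule genes over these same sums, so the steady rise is a description. Slc38a2 and Slc16a10 carry amino acids into cells, and Pabpc1 binds the poly(A) tail of mRNAs. Ccdc146 overlaps Fgl2 and Raver2 overlaps Jak1, both on the opposite strand, so their values are uncertain as to the gene.

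**Figure D5:**
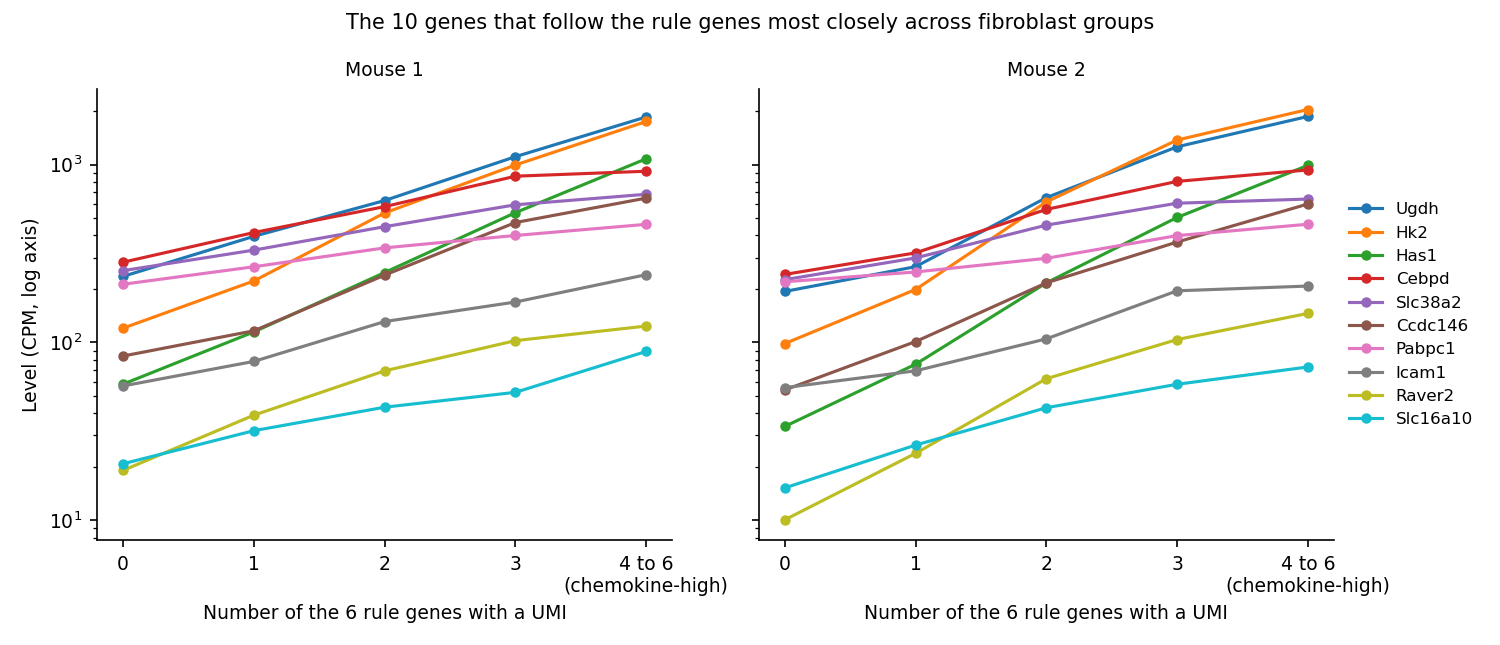
Levels in CPM (log axis) of the 10 genes outside the rule that followed the rule genes most closely, over fibroblasts with 0, 1, 2, 3 and 4 to 6 of the 6 rule genes, for each mouse. Has1 reached 1079 and 989.9 CPM in chemokine-high cells, against 58.3 and 33.7 CPM in cells with 0 genes.

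Within the chemokine-high cells, Has1, Ugdh, Hk2 and Pabpc1 of these 10 genes were higher with each further rule gene in both mice. Has1 was at 815, 1043 and 1724 CPM in cells of mouse 1 with 4, 5 and 6 rule genes and at 800.1, 1159 and 1209.5 CPM in mouse 2. Cebpd, Raver2 and Slc38a2 were lower with 6 than with 4 genes in mouse 1 and higher in mouse 2: Cebpd was at 994, 895 and 806 CPM in mouse 1 and 849.5, 999.6 and 1047 CPM in mouse 2, and Raver2 at 138, 127 and 85.2 CPM in mouse 1 and 115, 140.3 and 244 CPM in mouse 2. Slc16a10, Ccdc146 and Icam1 had no steady order in both mice. Of genes outside the 10, picked after their values were seen, Nfkb1 was at 1792, 2021 and 2154 CPM in mouse 1 and 1467, 1941 and 2596 CPM in mouse 2. Zc3h7a had no such order, at 1461, 2033 and 1418 CPM in mouse 1 and 1794, 1455 and 1397 CPM in mouse 2, and Osr1 had none either, at 56.2, 40.2 and 48.5 and 50.7, 37.1 and 58.3 CPM. Ptgs2 followed the number of genes in mouse 2 (234, 388 and 556 CPM) and less so in mouse 1 (714, 714 and 849 CPM). Fos and Jun were lower with each further rule gene in both mice. Fos was at 1804, 974 and 531 CPM in mouse 1 and 1356, 970 and 706 CPM in mouse 2. Jun was at 703, 279 and 225 CPM in mouse 1 and 578, 347 and 270 CPM in mouse 2. Of the same list of immediate early genes, Fosb, Klf2, Klf4, Nr4a1 and Nr4a2 were also lower with each further rule gene in both mice. Fosb was at 2147, 1459 and 1133 CPM in mouse 1 and 1609, 1451 and 1155 CPM in mouse 2. The other genes of the list were not lower at every step in both mice. Among these, Fosl2 was not lower with 6 genes than with 4, at 191, 191 and 219 CPM and 120, 153 and 171 CPM.

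Markers of other cell types were found in both groups at unequal levels. The summed level of 5 neutrophil markers was 219.9 and 218 CPM in chemokine-high cells, against 1550 and 838 CPM in chemokine-low cells, with Cxcr2 at 0 in the chemokine-high cells of both mice. In barcodes of at most 50 UMIs these markers summed to 1132 and 988 CPM. The 5 macrophage markers summed to 66.2 and 139 CPM, against 88.3 and 158 CPM, the 5 Schwann cell markers to 54.2 and 59.2 CPM, against 237 and 309 CPM, and the 5 endothelial markers to 72.2 and 42.6 CPM, against 93.6 and 72.2 CPM. These 4 lists were lower in chemokine-high cells in each mouse. Skeletal muscle markers crossed over, at 62.4 and 572 CPM in chemokine-high cells, against 509 and 40.3 CPM. Cartilage markers were at like levels, 289 and 141 CPM in chemokine-high cells, against 279 and 165 CPM. At least 2 of the 5 cartilage markers were found in 11.6% and 8.05% of chemokine-high cells, against 11.1% and 8.40% of chemokine-low cells. Of the olfactory neuron markers, Omp, Stoml3, Umodl1 and Rtp1 were at 0 in chemokine-high cells of both mice. Of 4 macrophage markers tested, Cd68 was higher by 1.20 ± 0.24 (log2, SE), and the other 3 did not pass. The part of any such cells in the results was not tested beyond leaving some of them out. Every cell with a UMI of the macrophage, neutrophil, T cell, B cell, mast cell or endothelial markers was then left out. With these out, 2863 genes were higher and 2001 lower, and the log2 fold change of Cxcl2 was 5.65. Of the named genes that had passed, Ccl11, Cfb, Kera, Tbx3 and Prg4 then did not pass (edgeR adjusted p = 0.0715, 0.0917, 0.200, 0.222 and 0.273). Markers of Schwann cells, skeletal muscle and cartilage were not used to leave cells out.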

How the data were processed

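Single-cell RNA was measured in 2 mice, 1 library each. Gene counts per barcode were used as deposited by the authors. Per the submitters' processing notes, STAR, Cell Ranger 7.0.0 and the GRCm39 build were used, and the annotation release and strand setting are not given in the sources used here. Counts were taken as UMIs. Members and gene lists were chosen with earlier results of these data known.

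Counts were summed per mouse and number of rule genes detected (0, 1, 2, 3, 4 to 6), and the 10 sums were fitted with edgeR 4.0.16 (R 4.3.3; quasi-likelihood test, TMM, filterByExpr, mouse as block), with Benjamini-Hochberg adjustment over 15731 genes and a threshold of 0.05. Mouse numbers pair the sums because each mouse gave all 5. The difference between the mice in chemokine-high cells correlated with that in the groups with 0, 1, 2 and 3 genes at 0.292, 0.368, 0.470 and 0.358 across genes. The test was checked on simulated data, where 78% of 100 genes changed 2-fold and 100% of 100 changed 4-fold were called. Those data had the same spread for every gene, no difference between mice and equal levels in the groups with 0 to 3 genes. Few genes changed in them, as many up as down. The data here differ in these points, so the shares called do not measure power here. Alternatives used DESeq2 1.42.0, other scalings, filters, comparison groups, cell filters and thinning.

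The genes named were the 12 largest changes each way of at least 50 CPM, up to 5 called genes of each list of at least 10 CPM, chemokine, cytokine and NF-κB list genes of at least 10 CPM and the 10 graded genes. Other list genes, such as Ereg and those named as not passing, were picked after their values were seen. Scrublet (scanpy 1.11.5) called 0 doublets in 23816 cells and so had not worked, and doublets were kept. As an alternative the highest scores were left out, 1599 cells (11.3%) in mouse 1 and 750 cells (7.75%) in mouse 2, at 0.8% per 1000 cells. The overlaps of genes were read from a GRCm38 annotation, without coordinates.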

Additional observations from a re-analysis of the deposited data

Results flagged for a closer look

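Cells outside the fibroblast rule also held 4 or more of the 6 genes, and they entered no comparison. There were 1068 of them in mouse 1 and 372 in mouse 2. Cxcl1 was at 2617 CPM in those of mouse 1 and at 1844 CPM in those of mouse 2, against 45.2 and 13.5 CPM in T cells. Of these cells, 1022 and 347 had at least 3 of the 5 fibroblast genes and were left out for a UMI of Acan or Cnmd.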

How the results depend on the processing

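Fewer genes changed with DESeq2's Wald test (2883, of which 772 lower), without the mouse as a replicate block (2586, of which 1672 higher and 914 lower) and against all fibroblasts with 0 to 3 genes (2620, of which 1884 higher and 736 lower). Genes lower numbered 1418 with chemokine-high and chemokine-low cells alone in the fit and 1281 in cells of 4000 to 12000 UMIs. Under library size alone, added after seeing the data, 1640 were higher and 5395 lower. The share of fibroblasts was 34.1% with at least 3 of the 6 genes and 11.8% with at least 5, and 18.5% to 26.5% with either mouse left out. Of 144 named genes that passed, 32 did not pass without the block, 14 against fibroblasts with 0 to 3 genes and 10 under library size alone, with no change of sign in these 3 settings. The calls of Fos, Jun, Ccl3 and Col3a1, which are not among the 144, were also lost under library size alone. Without the block, edgeR's adjusted p was 0.163 for Ccl19, 0.0967 for Fosl1, 0.0739 for Meox2, 0.0646 for Adamts4 and 0.0779 for Cilp2. Against cells with 0 genes alone it was 0.0601 for Fmod, and under library size alone 0.0757 for Tnip1. Prg4 changed sign with 5 or 6 genes required (log2 fold change -0.040) and with cells thinned to 2000 UMIs and 3 rule genes required (-0.14), Il1rn with adventitial markers in both groups (0.56), and the median of the other CC chemokines with doublets left out (-0.063). With either mouse left out, which gives no test, values ran from -0.18 to 0.15 for Prg4, -0.0092 to 0.41 for Cd248 and -0.15 to 0.48 for Cfb. These single-mouse values are not TMM-scaled, and otherwise the cause was not tested.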
